A study of Mus musculus with 8 samples.

Results

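The genes described here serve, supply or are related to the path that makes palmitate from acetyl-CoA in the cytosol. They are 10 named genes, Fasn, Acaca, Acacb, Acly, Acss2, Slc25a1, Me1, Mid1ip1, Thrsp and Aacs, chosen by symbol for their place in cytosolic acetyl-CoA and malonyl-CoA supply and fatty acid synthesis, out of 41730 gene rows in the count table. All 10 have a row. Reads were found for 6 of them, and these 6 were tested. The other 4, Slc25a1, Me1, Acacb and Thrsp, were listed at 0 in all 8 libraries.

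The cells were naive mouse CD8+ T cells, isolated untouched with a magnetic kit and kept in culture for 24 h. The treated group received RGX-104 at 2 µM, a compound that activates the liver X receptors (LXR), and the control group received DMSO, its solvent, with 4 libraries in each group. No genetic change is labelled for either group, and strain, age and number of animals are not stated in the labels. Messenger RNA was measured by QuantSeq, which primes on the poly(A) tail and reads the 3' end of a transcript, so a count carries no length term. Values are CPM, the reads of a gene divided by all counted reads of its library, on the scale usual for this unit. Libraries are named by the numbers in their labels, replicates 5 to 8 for RGX-104 and 1 to 4 for DMSO.

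LXR are nuclear receptors for oxidised cholesterol derivatives, and in liver and macrophages their agonists are known to raise genes of cholesterol export and of fatty acid synthesis. They do so directly and through SREBP-1c, a transcription factor encoded by Srebf1. In the pathway itself, citrate leaves the mitochondrion through the carrier encoded by Slc25a1 and is split by ATP citrate lyase (Acly) into oxaloacetate and acetyl-CoA. Acetate is a second source, through the synthetase encoded by Acss2. Acetyl-CoA carboxylase (Acaca, Acacb) turns acetyl-CoA into malonyl-CoA, and fatty acid synthase (Fasn) condenses both to palmitate with NADPH as reductant. Resting T cells make little fatty acid, and dividing CD8+ T cells are known to depend on its synthesis.

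Libraries held 16196217 to 28287445 counts in RGX-104 and 16308726 to 24353797 counts in DMSO. Genes with at least 1 count numbered 10442 to 10990 in RGX-104 and 9772 to 10908 in DMSO, where replicates 1 to 3 had the fewest, 9772 to 10194. Zeros among low genes were far more frequent than such totals would give for independent reads. A number of apparent molecules that would give those zeros was therefore estimated, and it was 250375 to 344257 per RGX-104 library and 182352 to 316834 per DMSO library. By this estimate 1 molecule was worth 2.90 to 5.48 CPM. The 12 measured genes of a 14-gene list of CD8 T cell identity summed to 4172 to 4653 CPM in RGX-104 and 4138 to 4302 CPM in DMSO, while 2 of that list, Cd2 and Cd28, which T cells are known to express, were listed at 0 throughout. A 0 in this table therefore does not show that a transcript was absent. B cell markers summed to 104 to 174 CPM in RGX-104 and 43.7 to 194 CPM in DMSO, macrophage and monocyte markers to 8.06 to 30.7 CPM in RGX-104 and 11.2 to 30.9 CPM in DMSO, and natural killer cell markers to 0 to 2.30 CPM in RGX-104 and 0 CPM in DMSO. The CD4 and regulatory T cell list summed to 23.6 to 60.1 CPM in RGX-104 and 26.0 to 70.3 CPM in DMSO. Whether these cells had a part in any result was not tested. Of 12 markers of adipocytes and hepatocytes, the classical lipogenic cells, 11 were at 0 in every library, Adipoq and Alb among them. The remaining marker, Apoa1, gave 2.83 to 7.92 CPM in RGX-104 and 0 to 1.52 CPM in DMSO.

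The promoter windows of 4 of these genes are shown because they stand at the steps the values below turn on, namely Fasn, whose transcript was called, Acaca and Mid1ip1, whose groups did not overlap, and Acly, whose groups did. Each window runs from 250 bases before to 50 bases after a transcription start in RefSeq on build GRCm38.p6, 5′ to 3′ on the strand of the gene. They lie at chr11:120824498-120824797 (minus strand, Fasn), chr11:84195188-84195487 (plus strand, Acaca), chrX:10717115-10717414 (plus strand, Mid1ip1) and chr11:100527951-100528250 (minus strand, Acly). Capitals mark matches, on either strand, to CCAAT, to GGGCGG, which is the GC box, or to DR4, written here as GGTNA, then 5 bases of any kind, then GGTNA again, a direct repeat in the arrangement that LXR paired with RXR is known to bind.
Fasn: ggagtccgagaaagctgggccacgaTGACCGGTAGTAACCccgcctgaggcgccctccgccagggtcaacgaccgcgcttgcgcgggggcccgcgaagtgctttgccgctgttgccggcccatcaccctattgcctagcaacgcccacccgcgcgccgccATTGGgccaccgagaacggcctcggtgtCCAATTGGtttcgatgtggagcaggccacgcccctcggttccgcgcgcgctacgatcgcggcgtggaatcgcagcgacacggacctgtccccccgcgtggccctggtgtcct
Acaca: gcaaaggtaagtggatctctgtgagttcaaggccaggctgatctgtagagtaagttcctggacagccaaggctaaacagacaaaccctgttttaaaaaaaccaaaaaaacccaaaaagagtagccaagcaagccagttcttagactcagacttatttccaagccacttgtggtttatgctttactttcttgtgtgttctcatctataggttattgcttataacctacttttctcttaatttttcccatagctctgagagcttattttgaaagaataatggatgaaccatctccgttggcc
Mid1ip1: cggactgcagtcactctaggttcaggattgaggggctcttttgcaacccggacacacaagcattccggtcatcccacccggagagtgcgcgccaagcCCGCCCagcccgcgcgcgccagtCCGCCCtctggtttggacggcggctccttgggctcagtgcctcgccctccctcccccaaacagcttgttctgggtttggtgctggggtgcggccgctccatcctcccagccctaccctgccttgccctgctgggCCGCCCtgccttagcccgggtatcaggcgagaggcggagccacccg
Acly: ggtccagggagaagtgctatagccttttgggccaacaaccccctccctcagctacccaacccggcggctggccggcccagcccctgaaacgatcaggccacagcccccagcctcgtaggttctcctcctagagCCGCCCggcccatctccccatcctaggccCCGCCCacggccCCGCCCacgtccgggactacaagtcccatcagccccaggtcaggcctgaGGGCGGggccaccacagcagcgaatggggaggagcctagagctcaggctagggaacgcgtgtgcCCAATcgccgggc

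The Fasn window held the DR4 match and 3 matches to CCAAT, of which 2 overlap each other, and no GC box. The DR4 match reads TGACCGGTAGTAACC in the printed direction and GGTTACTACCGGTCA on the other strand, and it covers the bases from 225 to 211 before the start site (chr11:120824758-120824772). Such a match was present in 0.718% of 32851 RefSeq windows of this kind, and of the 10 genes Fasn alone had it. CCAAT was in 37.4% of all windows and in windows of 7 of the 10 genes, and the GC box in 35.7% of all windows, in 62.5% of windows of tested genes and in windows of 5 of the 10, with 4 matches in the Acly window and 3 in that of Mid1ip1. The Acaca window held no match to any motif searched. It belongs to a start 65803 bases inside the gene, whereas the 5′ limit of the gene lies at another start, so it need not be the promoter used in these cells. The start of the Fasn window lies 619 bases inside the annotated 5′ limit of that gene. No window of the 10 genes matched TCACNCCAC, a sterol response type element (1.24% of all windows), or a carbohydrate response type element, CACGNG repeated after 5 bases of any kind (0.0487%). These are matches of letters and not measured binding sites.

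Fasn, the last enzyme of the path, rose with RGX-104, and of the 6 tested genes it was the only one that passed. In a bulk sample, more cells with a transcript and more of it per cell cannot be told apart. Acaca and Mid1ip1, the carboxylase before it and a protein that activates the carboxylase, had every RGX-104 library above every DMSO library but did not pass. The genes of acetyl-CoA supply, Acly, Acss2 and Aacs, overlapped between the groups. Over all genes tested, 0.0996% were called higher and 0.00996% lower (edgeR quasi-likelihood test, adjusted p under 0.05, 10037 genes), against 1 higher and 0 lower of these 6. At an unadjusted p under 0.05, 3 of the 6 were higher and none lower, beside 1.98% higher and 1.82% lower of all genes. Groups without overlap, RGX-104 above DMSO, were found for 3 of the 6 and for 2.20% of all genes tested, and the reverse for 0 of the 6 and 1.35% of all. DESeq2 and limma-voom likewise called 1 of the 6 higher and 0 lower. The median log2 fold change of the 6 was 0.79, against 0.0090 over all genes tested.

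**Figure D1:**
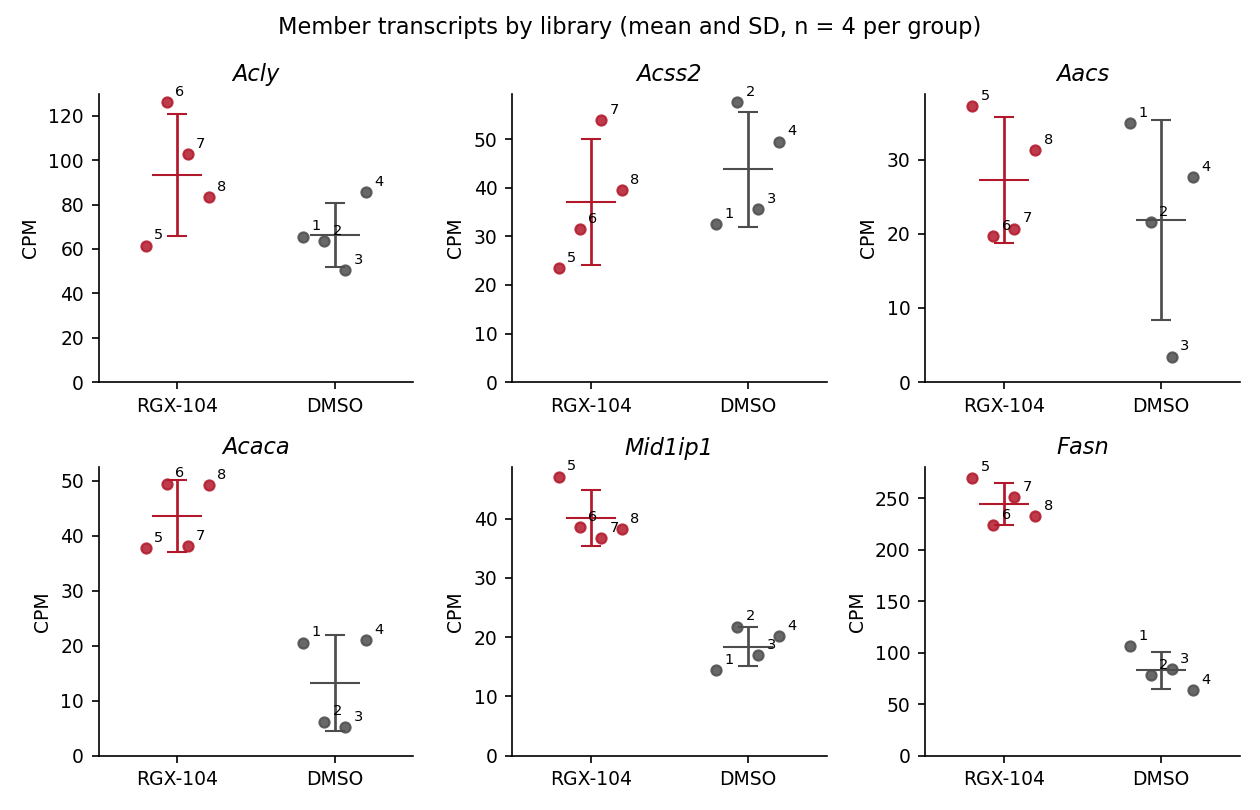
Level of each tested gene in CPM (vertical axis, from 0) in the 4 RGX-104 libraries (left in each panel, red) and the 4 DMSO libraries (right, grey); points are libraries with their replicate number, and bars give mean and SD. Fasn, Acaca and Mid1ip1 do not overlap between the groups, while Acly, Acss2 and Aacs do.

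The first step, citrate export, could not be followed. Slc25a1 (chromosome 16, 17925211 to 17928219, protein-coding), the mitochondrial citrate carrier, had 0 counts in every library. Taking 3 counts per group as the limit, up to 0.0363 CPM in RGX-104 or 0.0381 CPM in DMSO would remain possible for independent reads. By the zeros among low genes the reads were not independent, so this bound is too tight. Given the apparent molecules, a transcript of a few CPM could have been missed in any single library, though less readily in every library at once. No gene overlaps Slc25a1 in RefSeq.

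Acly, which splits exported citrate, was the second most abundant of the 10 transcripts in both groups. It gave 61.5, 126, 103 and 83.2 CPM in RGX-104 replicates 5 to 8, against 65.6, 63.4, 50.4 and 85.7 CPM in DMSO replicates 1 to 4. RGX-104 replicates 6 and 7 lay above every DMSO library, whereas replicate 5 lay below 3 of them. The means were 93.4 ± 27.6 CPM in RGX-104 and 66.3 ± 14.6 CPM in DMSO (SD, n = 4 each), with a log2 fold change of 0.48 (95% interval -0.092 to 1.04) that did not pass (edgeR, adjusted p = 1.00). The interval reaches 2.06-fold higher in RGX-104. Against DMSO replicate 4 alone, the DMSO library with the most genes detected, the log2 fold change was 0.089, and with genes detected as a covariate it was 0.21. Acly lies on chromosome 11, 100476352 to 100528000.

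Acss2 makes acetyl-CoA from free acetate. It was at 23.4, 31.5, 53.9 and 39.4 CPM in RGX-104 replicates 5 to 8, against 32.5, 57.7, 35.5 and 49.5 CPM in DMSO replicates 1 to 4. The highest library of either group was DMSO replicate 2 and the lowest RGX-104 replicate 5, with the rest mixed. It was the only tested gene of the 10 with a log2 fold change below 0, at -0.26 (95% interval -1.05 to 0.53), from means of 37.1 ± 13.0 CPM in RGX-104 and 43.8 ± 11.8 CPM in DMSO (SD, n = 4 each; edgeR, adjusted p = 1.00). The interval reaches 1.44-fold higher in RGX-104. Acss2 lies on chromosome 2, 155518043 to 155562743, and the noncoding gene that overlaps it, Acss2os, had 0 counts.

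Aacs, acetoacetyl-CoA synthetase, activates the ketone body acetoacetate in the cytosol for lipid synthesis. Its level was 37.2, 19.7, 20.7 and 31.2 CPM in RGX-104 replicates 5 to 8, against 35.0, 21.6, 3.45 and 27.6 CPM in DMSO replicates 1 to 4. DMSO replicate 3 was far below the other 7 libraries, at 84 reads or 0.731 apparent molecules by the estimate, and without it the remaining values of both groups covered about the same range. The log2 fold change of 0.29 (95% interval -0.95 to 1.54; edgeR, adjusted p = 1.00) became -0.071 without that library. Aacs lies on chromosome 5, 125475873 to 125517405.

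Me1, the cytosolic malic enzyme that turns malate into pyruvate and yields NADPH, had no count in any library (chromosome 9, 86581363 to 86695914). Its mitochondrial relative Me2, named for this comparison after its values were seen, was measured and not called, with a log2 fold change of 0.18 (edgeR, adjusted p = 1.00). A list of genes around cytosolic NADPH supply had 8 of 10 genes tested and none called. Of these, 5 were above 0 and 3 below, with a median log2 fold change of 0.036. Its most abundant members, Taldo1 and Tkt, belong to steps of the pentose phosphate path that form no NADPH themselves. Neither of them passed. Taldo1 was at 475 ± 23.8 CPM in RGX-104 and 458 ± 56.5 CPM in DMSO. Tkt was at 216 ± 39.3 CPM in RGX-104 and 162 ± 28.6 CPM in DMSO. Tkt, transketolase, was the only one of the list at an unadjusted p under 0.05 (log2 fold change 0.39, edgeR quasi-likelihood adjusted p = 1.00).

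Acaca encodes the cytosolic acetyl-CoA carboxylase, which makes malonyl-CoA and commits acetyl-CoA to fatty acids. Reads were 37.8, 49.5, 38.2 and 49.2 CPM in RGX-104 replicates 5 to 8, against 20.6, 6.19, 5.17 and 21.1 CPM in DMSO replicates 1 to 4. The RGX-104 libraries lay close together and all above DMSO, while the DMSO libraries fell into a higher pair (replicates 1 and 4) and a lower pair (replicates 2 and 3). The lower pair held 115 and 126 reads, or 1.13 and 1.10 apparent molecules, against 9.45 to 16.9 in the RGX-104 libraries. The coefficient of variation was 15.1% in RGX-104 and 66.1% in DMSO. With means of 43.7 ± 6.59 CPM in RGX-104 and 13.3 ± 8.76 CPM in DMSO (SD, n = 4 each), the log2 fold change was 1.70 ± 0.53 (SE, 95% interval 0.59 to 2.80; edgeR, adjusted p = 1.00), numerically the largest of the 6 and the least precise of the 3 without overlap. It did not pass in any of the 17 alternatives run, in which the adjusted p lay between 0.09998, with DESeq2, and 1.00, and the log2 fold change between 1.01, against DMSO replicate 4 alone, and 2.14, with limma-voom.

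Acaca spans chromosome 11, 84129635 to 84401651, and overlaps the neighbouring Tada2a by 10 bases at its 5′ end. Tada2a was at 24.7 ± 9.47 CPM in RGX-104 and 16.6 ± 7.43 CPM in DMSO and was not called. The gene Gm11437 inside it had 0 counts. Its paralog Acacb (chromosome 5, 114146321 to 114250761) encodes the carboxylase at the outer mitochondrial membrane, known from muscle and liver, where its malonyl-CoA restrains fatty acid import for oxidation. Acacb was listed at 0 in all 8 libraries.

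Mid1ip1 and Thrsp (Spot 14) are related small proteins, and the product of Mid1ip1 is known to bind acetyl-CoA carboxylase and favour its active polymer. Mid1ip1 was at 47.1, 38.5, 36.7 and 38.2 CPM in RGX-104 replicates 5 to 8, against 14.5, 21.8, 17.0 and 20.2 CPM in DMSO replicates 1 to 4. Every RGX-104 library lay above every DMSO library. The coefficients of variation were 11.7% in RGX-104 and 17.8% in DMSO. They are smaller than counting error would usually give at the apparent molecules below, so they need not reflect precision. The means were 40.1 ± 4.71 CPM in RGX-104 and 18.4 ± 3.27 CPM in DMSO (SD, n = 4 each), and the log2 fold change of 1.11 ± 0.42 (SE, 95% interval 0.23 to 1.99; edgeR, adjusted p = 1.00) did not pass. The DMSO values correspond to 2.91 to 6.41 apparent molecules and the RGX-104 values to 11.2 to 13.2. The value stayed between 0.95 and 1.19 in all alternatives and passed in none of them (adjusted p from 0.144 to 1.00). Mid1ip1 lies on chromosome X, 10717365 to 10719702, with no overlapping gene. Thrsp (chromosome 7, 97412933 to 97417550), a liver and adipose gene that responds to thyroid hormone, had 0 counts in every library.

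Fasn, which carries all steps from malonyl-CoA to palmitate on one polypeptide, was the most abundant of the 10 in RGX-104. It was at 270, 223, 251 and 232 CPM in RGX-104 replicates 5 to 8, against 107, 78.0, 83.7 and 63.5 CPM in DMSO replicates 1 to 4. The lowest RGX-104 library stood at over 2 times the highest DMSO library. The means were 244 ± 20.6 CPM in RGX-104 and 82.9 ± 17.9 CPM in DMSO (SD, n = 4 each), and the log2 fold change was 1.54 ± 0.19 (SE, 95% interval 1.15 to 1.93; edgeR, adjusted p = 1.75e-04), a 2.91-fold rise. In apparent molecules this was 65.2 to 80.0 per RGX-104 library and 14.2 to 21.4 per DMSO library. A single molecule was thus a small part of any Fasn value, but counting error weighs more on the DMSO values. Fasn ranked 7th by p among the 10037 genes and 6th among those that were higher. The call held in all 17 alternatives, with a log2 fold change from 1.44 to 1.91 and an adjusted p of at most 0.00288. Fasn lies on chromosome 11, 120805958 to 120825166, with no overlapping gene in RefSeq.

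**Figure D2:**
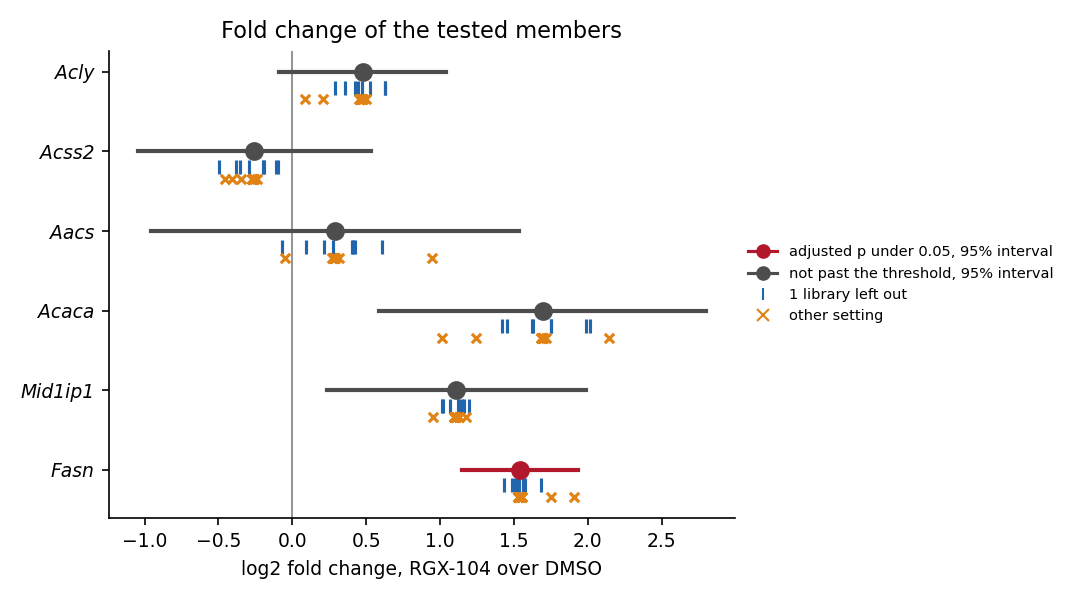
Log2 fold change, RGX-104 over DMSO (horizontal axis), of the 6 tested genes; circles and lines give the edgeR value and its 95% interval, ticks the values with 1 library left out and crosses those of the other settings. The interval of Fasn (1.15 to 1.93) is the narrowest of the 6, and those of Acly, Acss2 and Aacs include 0.

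The 6 transcripts together summed to 474 to 503 CPM in RGX-104 libraries and 195 to 275 CPM in DMSO libraries. Much of this difference was Fasn, whose share of the sum was 50.3% ± 4.56 in RGX-104 and 34.2% ± 8.44 in DMSO (SD, n = 4 each). Without Fasn the sum was 207 to 266 CPM in RGX-104 and 112 to 204 CPM in DMSO. The share of Acss2 was 7.60% ± 2.50 in RGX-104 and 17.9% ± 4.66 in DMSO, without overlap between the groups, although its own level overlapped. Because the sum includes Fasn, this share falls as Fasn rises, even at an unchanged level of Acss2. The ratio of Acly to Acss2, the citrate route over the acetate route, was 1.90 to 4.00 in RGX-104 and 1.10 to 2.02 in DMSO. The ratio of Fasn to Acly was 1.77 to 4.38 in RGX-104 and 0.742 to 1.66 in DMSO. These sums and ratios are descriptions and were not tested.

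**Figure D3:**
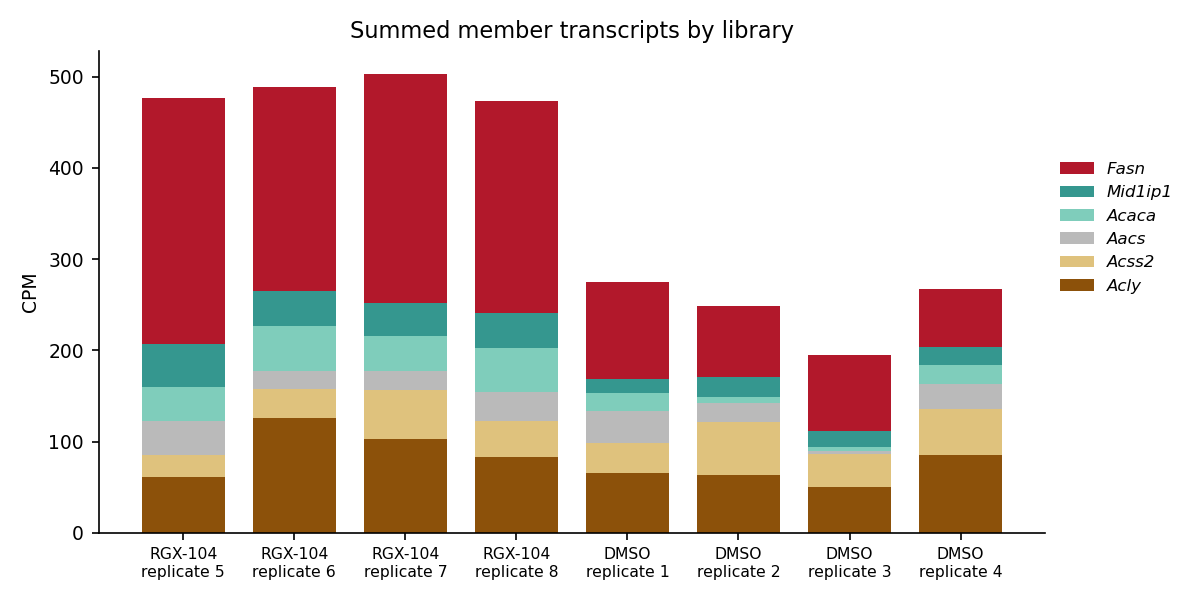
Stacked CPM (vertical axis, from 0) of the 6 genes with reads, in the 4 RGX-104 libraries (left) and the 4 DMSO libraries (right), each colour standing for a gene. The RGX-104 bars end between 474 and 503 CPM and the DMSO bars between 195 and 275 CPM, and Fasn is the segment that differs most.

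The spread between libraries differed from gene to gene. The coefficient of variation of CPM in RGX-104 was lowest for Fasn, at 8.44%, and highest for Acss2, at 35.0%, and in DMSO it was lowest for Mid1ip1, at 17.8%, beside 21.6% for Fasn. The biological coefficient of variation that edgeR assigned to Fasn was 0.205, against 0.225 for all genes at its level, and it was 0.286 for Acly, 0.392 for Acss2, 0.432 for Mid1ip1, 0.522 for Acaca and 0.595 for Aacs, values that edgeR draws toward the trend with level (0.515 at the level of Mid1ip1). Among genes tested, 89.4% had a lower mean CPM than Fasn and 48.5% a lower mean than Acaca. RGX-104 replicate 5 was the highest library for Fasn, Mid1ip1 and Aacs and the lowest RGX-104 library for Acly, Acss2 and Acaca.

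The genes with the pattern most like that of Fasn were looked for across the table. By Pearson correlation of log2(CPM + 1) over 8 libraries, among 6170 other genes with a mean of at least 20 CPM, the closest outside the 10 were Abcg1 (r = 0.993), Scd2 (0.991), Mylip (0.990), Rnf145 (0.977) and Srebf1 (0.959). All 5 were themselves called higher in RGX-104, so these coefficients largely restate the difference between the groups. Mid1ip1 ranked 23rd (r = 0.880), Acaca 79th (0.801), Acly 961st (0.457) and Aacs 1511th (0.338), and Acss2 was at -0.43. With the group means removed, the other 5 tested genes had coefficients with Fasn between -0.52 and 0.098, and the closest genes were Psmb10 (0.966), Plekha5 (0.940) and Ttll12 (0.928), none of them called. With only 8 libraries, which differed in depth, these are descriptions.

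Srebf1, whose product is known to act on Fasn, Acaca and Acly promoters, was at 417 to 594 CPM in RGX-104 and 84.5 to 102 CPM in DMSO (log2 fold change 2.39 ± 0.16, edgeR, adjusted p = 3.45e-08). Of 22 listed regulators of lipogenic genes and enzymes 16 were tested, and Srebf1 was the 1 called, with 9 above 0, 7 below and a median log2 fold change of 0.18. Srebf2, its relative for sterol genes, was at 216 ± 33.3 CPM in RGX-104 and 162 ± 31.8 CPM in DMSO (log2 fold change 0.40, adjusted p = 1.00), and Usf2, a factor of the Fasn promoter, at 253 ± 51.7 CPM in RGX-104 and 202 ± 33.4 CPM in DMSO. Insig1, the retention factor of SREBP that sterols and SREBP themselves control, had the highest fitted value of the list, 4.32, but gave only 0.530 to 9.33 CPM in RGX-104 and 0 to 0.613 CPM in DMSO, with a 95% interval from -1.65 to 10.3. The Insig1 value was 2.88 without RGX-104 replicate 6 and 9.06 without DMSO replicate 4, where the remaining DMSO libraries were all at 0, so it gives no size of a difference. Nr1h2, the receptor LXRβ, was at 43.3 ± 12.4 CPM in RGX-104 and 49.4 ± 14.9 CPM in DMSO and was not called. Mlxipl, which encodes the glucose-responsive lipogenic factor ChREBP, was listed at 0 in all libraries, as were Rxrb, Nfya, Prkaa2 and Mid1.

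No gene in the lists around the path other than Srebf1 was called. Upstream, citrate formation in the mitochondrion had 12 of 15 genes tested, none called, 6 above 0 and 6 below, with a median log2 fold change of -0.052. Citrate synthase (Cs) was at 163 ± 17.5 CPM in RGX-104 and 159 ± 17.2 CPM in DMSO (log2 fold change 0.018, 95% interval -0.34 to 0.37). Mpc1, a subunit of the mitochondrial pyruvate carrier, had the largest fitted value of that list, 0.76, at 12.0 to 46.9 CPM in RGX-104 and 3.29 to 23.9 CPM in DMSO, and without RGX-104 replicate 6, its highest library, the value was 0.074. Among other enzymes of acetyl-CoA and malonyl-CoA, 9 of 12 were tested, none called, 2 above 0 and 7 below, with a median of -0.29. Acat2, the cytosolic thiolase that joins acetyl-CoA units, was at 172 ± 14.7 CPM in RGX-104 and 151 ± 40.3 CPM in DMSO. Acsf3, the mitochondrial malonyl-CoA synthetase, was near the limit of counting at 0 to 1.36 CPM in RGX-104 and 0 to 7.66 CPM in DMSO.

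The separate mitochondrial path of fatty acid synthesis serves lipoic acid rather than palmitate. Of its 6 matched genes 5 were tested and none called, 1 above 0 and 4 below, with a median log2 fold change of -0.46. Apart from the carrier protein gene, the tested genes of this path averaged 3.76 to 14.3 CPM, or few apparent molecules per library. Its carrier protein gene Ndufab1, also a respiratory complex subunit, was at 38.3 ± 16.0 CPM in RGX-104 and 38.9 ± 22.8 CPM in DMSO, Mcat, its malonyl transferase, at 12.0 ± 4.55 CPM in RGX-104 and 16.7 ± 6.43 CPM in DMSO, and Cbr4, a reductase subunit, at 4.92 ± 5.10 CPM in RGX-104 and 2.60 ± 3.06 CPM in DMSO. Of the carnitine shuttle, which imports fatty acids for oxidation and is inhibited by malonyl-CoA, 4 of 6 genes were tested and none called, 2 above 0 and 2 below, with a median of 0.28. Cpt1a, its regulated entry enzyme, was at 43.9 ± 10.4 CPM in RGX-104 and 44.4 ± 12.2 CPM in DMSO (log2 fold change -0.034, 95% interval -0.76 to 0.70). Slc25a20, the carnitine carrier, was at 33.5 ± 3.46 CPM in RGX-104 and 21.9 ± 13.3 CPM in DMSO, and Cpt2 at 13.6 ± 13.6 CPM in RGX-104 and 6.97 ± 4.85 CPM in DMSO. Over all 6 lists, 54 genes were tested, 25 above 0 and 29 below, 1 was called higher and 0 lower, and the median log2 fold change was -0.049.

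**Figure D4:**
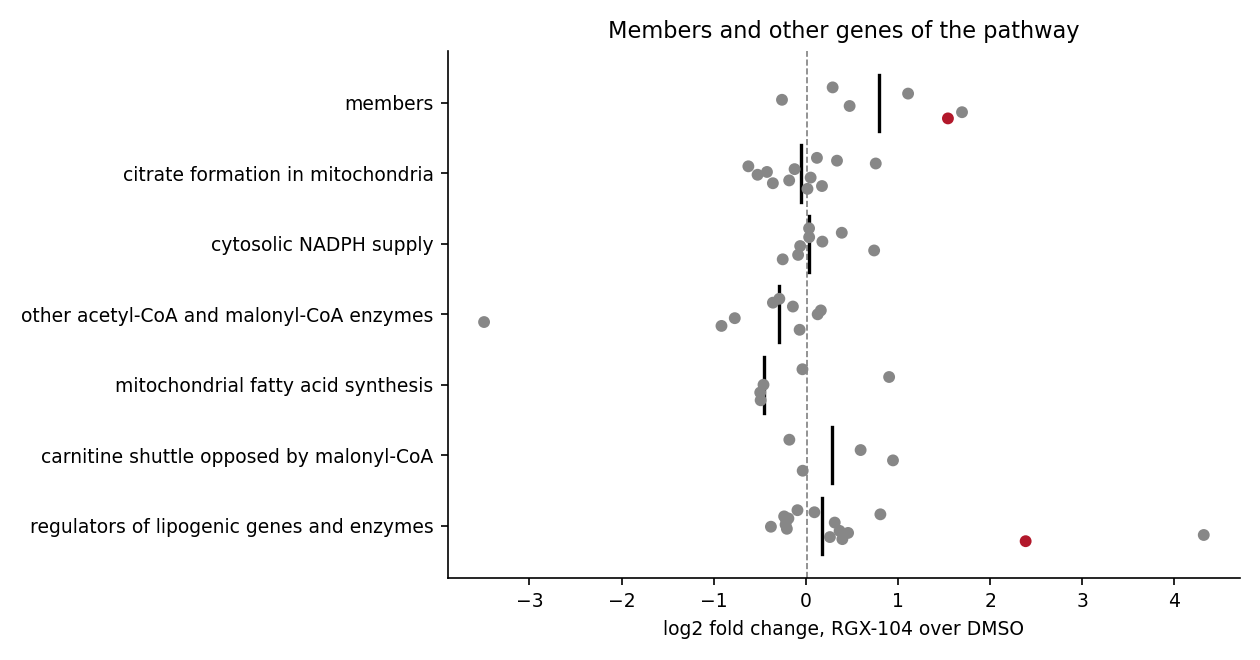
Log2 fold change, RGX-104 over DMSO (horizontal axis), of the tested genes among the 10 and in each of 6 lists of neighbouring pathways; each point is a gene, red where the adjusted p was under 0.05, the black bar is the median of a row and the dashed line the median of all genes tested (0.0090). The 2 red points are Fasn and Srebf1.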

How the data were processed

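Poly(A) RNA of naive CD8+ T cells was sequenced from the 3' end in 8 libraries. The authors deposited 1 table of unnormalized read counts with a row per gene symbol, per the file headers and the values, which are whole. Per the submitters' processing notes, STAR 2.7.8a, R 4.1.0, DESeq2 1.4 and GRCm38 were used, with no role given. How reads were assigned to genes, with which annotation and strand setting, and whether molecular identifiers were counted is not given in the sources used here. Reads of overlapping genes may therefore be mixed.

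The 10 genes and all lists were chosen with earlier results of these data known, as were the alternatives. Nothing in the labels says whether libraries came from separate animals, and the p-values thus reflect only how far these libraries differ from each other, possibly for technical reasons. Counts were fitted over all genes with edgeR 4.0.16 (R 4.3.3): TMM normalization, filterByExpr with a minimum count of 10 (10037 genes kept), the quasi-likelihood test of RGX-104 over DMSO with no covariate, and Benjamini-Hochberg adjustment over all genes tested, with calls at an adjusted p under 0.05. The test was checked on counts simulated from the model that it assumes. That check cannot show how the test behaves where the real counts depart from the model. Standard errors are the log2 fold change over the square root of F, and 95% intervals use them with the degrees of freedom of the fit. CPM used library totals. DESeq2 1.42.0, limma-voom (limma 3.58.1) and other settings were alternatives.

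The apparent molecules of a library are the number that gives, under Poisson sampling, the observed zeros among genes that average 2 to 20 CPM over the remaining 7. Floors cover counting error only and take reads as independent, which makes them too low here. Of the rows, 39351 matched RefSeq symbols, including all 10 genes, which gave coordinates, 1-based. Besides the 10, the text names from each list its called genes, the 2 with the highest mean CPM and the 1 with the largest fitted change, and Srebf1, Srebf2, Nr1h2, Mlxipl and Cpt1a. Some genes that this rule names are not reported here.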

Additional observations from a re-analysis of the deposited data

Results flagged for a closer look

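Among 54 groups of 4 libraries examined, 4 had 1 library well apart from its group, and about 3 such flags arise by chance. None of these was a value of the 10 genes. The rule looks for 1 lone library, so it could not flag the lower pair of DMSO libraries for Acaca. These were replicates 2 and 3, at 6.19 and 5.17 CPM. RGX-104 replicate 6 stood apart for Mpc1, at 46.9 CPM against 12.0 to 15.9 CPM in the other RGX-104 libraries, and for Insig1, at 9.33 CPM against 0.530 to 1.85 CPM. RGX-104 replicate 7 was the only RGX-104 library with reads of Acsf3, at 1.36 CPM. DMSO replicate 4 was the only DMSO library with reads of Insig1, at 0.613 CPM. A lone library with reads is always flagged by such a rule, so the number given for chance does not cover these cases.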

How the results depend on the processing

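Fasn kept its call in all 17 alternatives, at 1.44 to 1.69 with 1 library left out, and 1 of the 10 genes was called higher and 0 lower in each. Over all genes the number called higher was 7 to 11 with 1 library left out, 25 with DESeq2 and 6 with genes detected as a covariate. The number called lower was 1 to 3 with 1 library left out (3 without DMSO replicate 4), 2 among genes with a mean of at least 20 CPM, 4 without a filter, 19 with DESeq2 and 3 with limma-voom. Of 102 values of the 6 genes, 100 kept direction and side of the threshold, and both exceptions were of Aacs, at -0.053 against DMSO replicate 4 alone and -0.071 to 0.61 with 1 library left out. Of 299 values of the other named genes, 24 changed sign, all of genes that were not called. Against DMSO replicate 4 alone these were Acat2 (-0.24) and Taldo1 (-0.19), in a fit where the median of all genes was 0.13. With genes detected as a covariate they were Acat2 (-0.091), Cbr4 (-0.13), Cpt1a (0.022), Ndufab1 (0.23) and Taldo1 (-0.083), and with limma-voom Cpt1a (0.058), Idh1 (-0.84) and Ndufab1 (0.25). With 1 library left out, log2 fold changes ran from -0.22 to 0.077 for Cpt1a, -0.038 to 0.072 for Cs, -0.61 to 1.16 for Idh1, -0.35 to 0.34 for Ndufab1 and -0.040 to 0.12 for Taldo1. The causes were not tested. Where DMSO replicate 4 stands alone, it is assumed to vary like the RGX-104 libraries. No paired analysis was possible because the library numbers are unique across the groups. In DMSO libraries Acaca, Mid1ip1 and Aacs correspond to 0.731 to 8.74 apparent molecules, a number that did not follow the total of counts, since DMSO replicate 4 had the fewest counts and the most apparent molecules of the DMSO libraries.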

Other observations

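Promoter windows were available for 6 of the 10 genes called higher over the whole table, and 3 of these 6 windows held the DR4 match, Fasn among them. The DR4 match was in 0.718% of all windows and in 0.466% of windows of tested genes. Of the same 6, 5 held the GC box and 4 CCAAT, beside 62.5% and 37.4% of windows of tested genes. The sterol response type element was in 0 of the 6, and so was the carbohydrate response type element. The genes were taken because they were called, and the counts are descriptions with no test.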
